A study of Mus musculus with 16 samples.

Results

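The 9 genes described here write, maintain or erase cytosine methylation in DNA: Dnmt1, Uhrf1, Dnmt3a, Dnmt3b, Dnmt3l, Tet1, Tet2, Tet3 and Tdg. They were chosen by name, with earlier results of these data known, as 9 of the 35976 gene rows of the count table. All 9 were among the 13891 genes that passed the filter on low counts. RNA came from mouse neural tube organoids on day 4, grown from R1, an embryonic stem cell line, that carried a FOXA2-Venus reporter and had been given retinoic acid for 18 hours. The libraries fall into 4 groups by the cells' FOXA2 level, called gates here: 4 libraries each of FOXA2 negative, low, medium and high cells. FOXA2 is a transcription factor of the floor plate at the ventral midline. All groups share the cell line, the reporter and the treatment. Nothing in the labels says that the numbered libraries of a gate are separate cultures, and a p-value here therefore reflects library-to-library spread that may be technical. The labels also do not say how the cells were separated.

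Methylation of cytosines next to guanines (CpG sites) is copied at each cell division. UHRF1 binds the half-methylated sites behind the replication fork and brings in DNMT1, the maintenance methyltransferase. New methylation is laid down by DNMT3A and DNMT3B, and DNMT3L, which has no catalytic activity of its own, binds and stimulates both. The TET enzymes oxidise the methyl group, and the glycosylase TDG excises the oxidised bases so that repair can put back an unmethylated cytosine. In mouse embryonic stem cells Dnmt3l, Dnmt3b and Tet1 are known to be highly expressed, and Tet3 is known for its role in neural differentiation.

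Against the negative gate, Dnmt3l was the member that differed most, and it was already low in the low gate. Dnmt3b and Uhrf1 were lower in the high gate by smaller amounts, and Tet3 was higher there. Tet2, measured from few counts, was called lower in the high gate, and its fall in the low gate (log2 fold change -1.11) did not pass. Dnmt1, Dnmt3a, Tet1 and Tdg did not pass the test in any gate. In the comparison of high with negative, 4 of 9 members were lower and 1 was higher at an edgeR adjusted p under 0.05, against 8.55% and 8.42% of all 13891 genes tested, or 17.0% in either direction. The median log2 fold change was -0.47 over the 9 members and 0.00 over all genes tested. Because the members were chosen with earlier results known, setting them beside all genes is no test of the members as a set. Between medium and negative, 2 of 9 were lower and 0 were higher, against 4.22% and 4.24% of all genes (8.46% in either direction). Between low and negative, 1 of 9 was lower and 0 were higher, against 2.29% and 1.47% of all genes (3.76% in either direction).

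Promoter windows of 4 of the 5 called members are printed here because the genes encode the machinery that acts on such CpG sites, and Dnmt3l differs from the other 3 in how many it holds. Sequences are RefSeq windows of 300 bases around an annotated start (build GRCm38.p6), written 5′ to 3′ along the gene, with each CpG in capitals.
Dnmt3l, chr10:78042037-78042336, plus strand: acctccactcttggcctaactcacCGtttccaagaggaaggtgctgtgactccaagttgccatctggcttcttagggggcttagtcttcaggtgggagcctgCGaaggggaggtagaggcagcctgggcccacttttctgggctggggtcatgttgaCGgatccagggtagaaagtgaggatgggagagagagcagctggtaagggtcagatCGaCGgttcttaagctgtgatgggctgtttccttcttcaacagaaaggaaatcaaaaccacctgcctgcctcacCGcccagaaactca
Dnmt3b, chr2:153649199-153649498, plus strand: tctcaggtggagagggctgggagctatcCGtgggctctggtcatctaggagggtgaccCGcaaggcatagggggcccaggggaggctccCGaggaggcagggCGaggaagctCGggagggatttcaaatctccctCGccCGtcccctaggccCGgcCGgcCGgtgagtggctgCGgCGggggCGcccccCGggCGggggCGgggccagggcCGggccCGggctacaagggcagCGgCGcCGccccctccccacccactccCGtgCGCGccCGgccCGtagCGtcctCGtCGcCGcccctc
Uhrf1, chr17:56304063-56304362, plus strand: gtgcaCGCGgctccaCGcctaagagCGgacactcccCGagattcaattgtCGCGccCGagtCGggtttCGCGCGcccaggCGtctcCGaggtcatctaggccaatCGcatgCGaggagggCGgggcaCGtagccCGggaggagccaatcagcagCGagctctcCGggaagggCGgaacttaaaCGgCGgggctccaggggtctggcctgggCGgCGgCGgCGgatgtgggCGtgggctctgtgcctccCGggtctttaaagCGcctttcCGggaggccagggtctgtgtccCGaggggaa
Tet3, chr6:83441629-83441928, minus strand: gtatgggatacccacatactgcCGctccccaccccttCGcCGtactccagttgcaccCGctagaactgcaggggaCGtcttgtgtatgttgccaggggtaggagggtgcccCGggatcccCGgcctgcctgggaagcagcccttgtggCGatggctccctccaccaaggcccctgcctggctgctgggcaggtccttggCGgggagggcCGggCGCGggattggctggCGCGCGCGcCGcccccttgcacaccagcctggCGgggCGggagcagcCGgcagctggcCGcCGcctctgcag

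This Dnmt3l window holds 6 CpG sites, and those at the gene's other 2 annotated starts hold 4 and 3. The Dnmt3b window holds 30, the Uhrf1 window shown 33 (12 at its other annotated start), the Tet3 window 22 and that of Tet2, not shown, 57. Over 13537 windows of genes that were tested the median is 20 (7 over all 32851 windows). The forkhead word TGTTTAC, searched on both strands, is in none of the 16 windows of the 9 members and in 3.65% of all windows. The words TTTCCCGC, TTTGGCGC and TTTCGCGC, which are forms of the E2F motif, are in 1.845% of all windows, in the Uhrf1 window shown and in 1 of the 3 Dnmt1 windows. Counts taken at the 3′ end do not tell which start was used, and DNA methylation itself was not measured here.

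The gates and the background of the cells were checked first. Foxa2 averaged 2.91 ± 1.68 CPM (counts scaled to library size) in negative, 11.9 ± 3.02 in low, 52.0 ± 9.36 in medium and 113 ± 18.2 in high libraries (SD, n = 4 each). Library totals ran from 3268948 to 9961032 counts. Of 6 neural progenitor markers, Pax6, Hes5, Nes and Ncam1 were present, while Sox1 and Sox2 are listed at 0 in every library. Marker sums of some further cell types also differed between gates. The summed level of 14 pluripotency and epiblast genes lay between 76.1 and 114 CPM in the high gate, against 664 and 1135 CPM in the negative gate. Of the 13 tested, 11 were lower and 2 did not pass. Over all genes, 8.55% were lower and 8.42% higher in high than in negative libraries. Klf4, among those 2, averaged 4.77 ± 1.07 CPM in high and 2.86 ± 1.87 CPM in negative libraries. Utf1 alone averaged 364 ± 92.0 CPM in negative and 16.8 ± 5.26 CPM in high libraries. Pou5f1, at 0 counts in the high gate, averaged only 2.49 CPM in the negative gate. The summed level of 9 endoderm genes lay between 295 and 307 CPM in the high gate, against 47.4 and 50.4 CPM in the negative gate, with Hnf4a at 0 counts in the high gate and Cubn at 0 in the negative gate. Most of that sum came from Sox17 (134 ± 14.5 CPM in high, 11.7 ± 3.02 CPM in negative libraries) and Cldn6 (149 ± 8.61 and 32.3 ± 4.96 CPM), and of the 4 endoderm genes tested 3 were higher and Gata4 did not pass (log2 fold change -0.90, edgeR adjusted p = 0.11). The 6 neural progenitor genes summed to between 67.8 and 85.8 CPM in the high gate, against 264 and 314 CPM in the negative gate. The 4 neuron genes summed to between 46.9 and 69.8 CPM in high libraries, against 131 and 215 CPM in negative ones (3 of 3 tested were lower), and 4 floor plate genes to between 60.7 and 76.7 CPM, against 20.02 and 22.4 CPM (3 of 3 tested were higher). The 4 mesoderm genes summed to between 28.3 and 39.9 CPM in high and between 24.6 and 40.3 CPM in negative libraries, which overlap. Of 3 tested, 2 were higher and 1 was lower. The 4 neural crest genes summed to between 2.16 and 9.36 CPM, against 8.26 and 26.0 CPM, which also overlap (1 of 2 tested was lower). The part of these cell types in the members' differences was not tested. In bulk RNA, fewer cells of a type and less RNA per cell cannot be told apart.

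**Figure D1:**
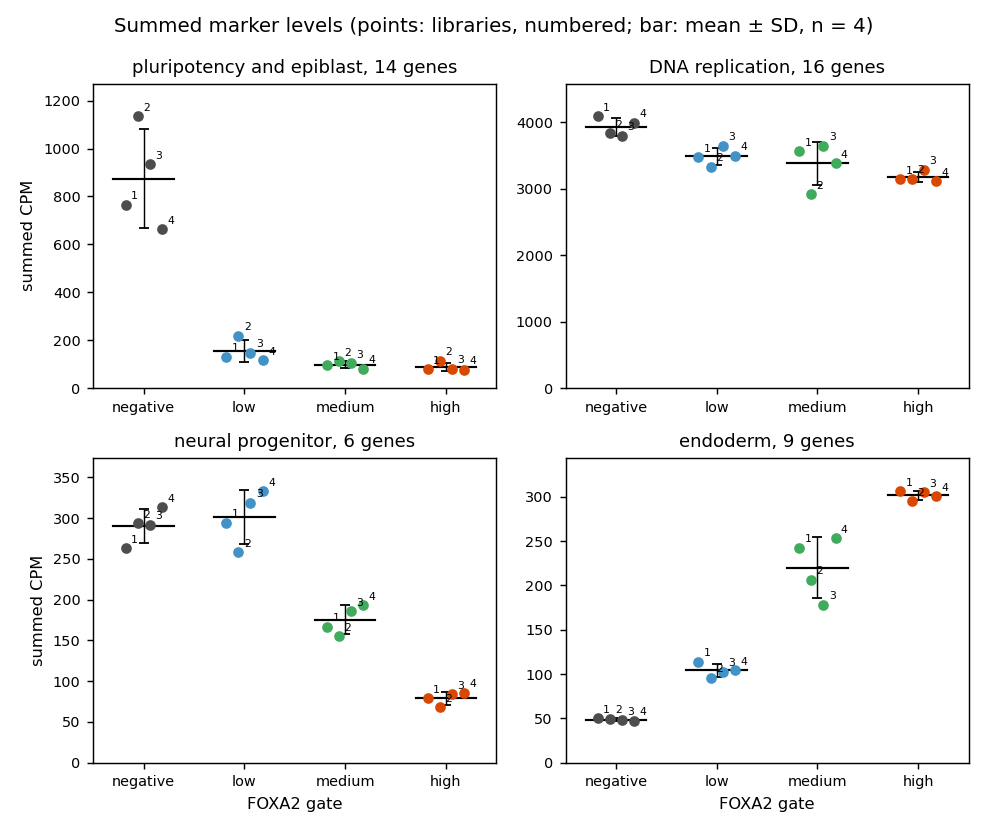
Summed CPM of marker lists in each library (points, numbered by replicate) by FOXA2 gate, with mean ± SD (n = 4). The pluripotency sum is 664 CPM or more in every negative library and 219 CPM or less in every library of the other gates, while the endoderm sum is higher in each successive gate.

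Dnmt3l (chromosome 10, 78041947 to 78063622, plus strand, GRCm38) encodes the non-catalytic partner of the de novo enzymes. It measured 22.7, 30.6, 28.4 and 15.5 CPM in the negative libraries and 4.94, 7.77, 3.67 and 4.21 CPM in the low ones. The medium libraries had 2.95, 3.298, 3.28 and 2.55 CPM and the high ones 2.49, 4.05, 3.39 and 3.65 CPM. Every library of the low, medium and high gates lay below every negative library. The log2 fold change over the negative gate was -2.24 for low (SE 0.250, edgeR adjusted p = 5.47e-07), -2.99 for medium (SE 0.269, adjusted p = 2.18e-09) and -2.85 for high (SE 0.274, adjusted p = 4.40e-09). Its level in the high gate was thus 13.9% of that in the negative gate. The high and medium libraries overlapped. The medium libraries also all lay below the low ones, but the difference did not pass the test (log2 fold change -0.75, SE 0.288, adjusted p = 0.435). That of high over low was -0.61 (SE 0.294, adjusted p = 0.27).

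The step in Dnmt3l between the negative and the low gate fell where the pluripotency markers also stepped down. Their sum was between 116 and 219 CPM in the low gate. There, 11 of the 13 tested were lower than in the negative gate, against 2.29% of all genes. Within the negative gate, libraries 2, 3, 1 and 4 stood in that order for both Dnmt3l and the pluripotency sum (1135, 935, 766 and 664 CPM). This order was not particular to Dnmt3l, since Dnmt3b had it too. The negative 4 library was the lowest of its gate for 6 members (Dnmt1, Dnmt3a, Dnmt3b, Dnmt3l, Tet1 and Tet2). The part of pluripotent cells in the Dnmt3l result was not tested. Among 6115 named genes with a mean of at least 20 CPM, those whose log2 CPM followed Dnmt3l most closely over the 16 libraries were Tdh (threonine dehydrogenase, Pearson r = 0.989), L1td1 (0.974) and Pim2 (0.963), of which Tdh and L1td1 are also in the pluripotency list. These libraries share the gate differences, which such a correlation contains.

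**Figure D2:**
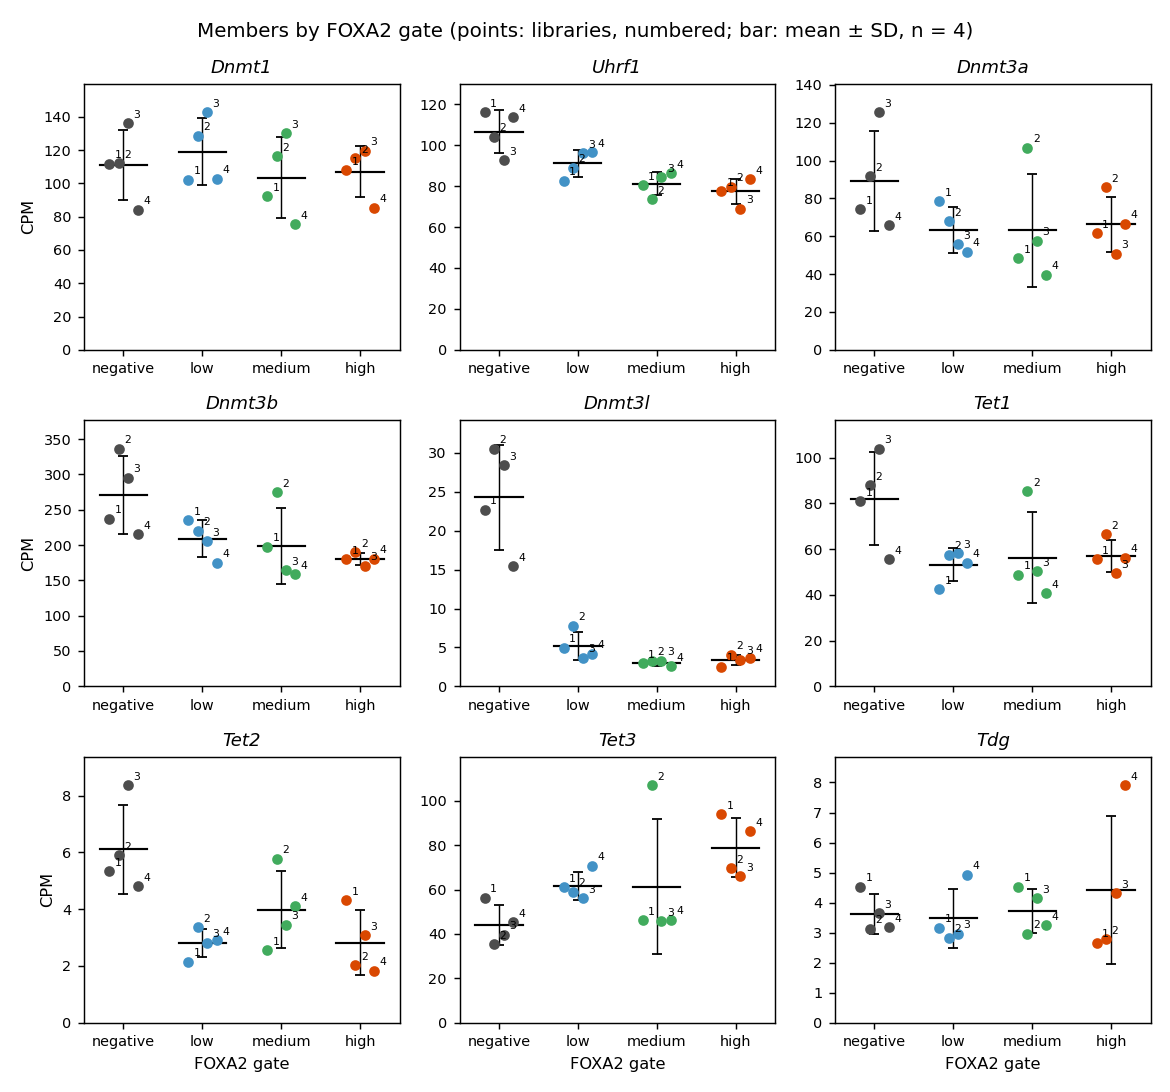
CPM of the 9 members in each library (points, numbered by replicate) by FOXA2 gate, with mean ± SD (n = 4). Dnmt3l is at 15.5 CPM or more in the negative libraries and at 7.77 CPM or less elsewhere, Tet3 is highest on average in the high gate, and the medium 2 library stands above its gate for Dnmt3a, Dnmt3b, Tet1 and Tet3.

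Dnmt3b (chromosome 2, 153649450 to 153687730, plus strand) encodes the de novo methyltransferase of the early embryo. It measured 237, 336, 295 and 216 CPM in the negative libraries and 235, 220, 206 and 175 CPM in the low ones. The medium libraries had 197, 274, 165 and 158 CPM and the high ones 180, 190, 171 and 180 CPM. The 4 high libraries lay close together and all below the negative ones. Dnmt3b fell by 0.59 on the log2 scale in the high gate (SE 0.152, edgeR adjusted p = 0.00878), to 66.5% of the level in the negative gate. The log2 fold change was -0.45 for medium (SE 0.151, adjusted p = 0.0717) and -0.37 for low (SE 0.151, adjusted p = 0.223), neither of which passed. The medium value passed without the medium 2 library (log2 fold change -0.63, adjusted p = 0.00126) and without negative 4 (-0.54, adjusted p = 0.025). The genes most like Dnmt3b across libraries were Hprt (r = 0.903), Mtss1 (0.861) and Gpd2 (0.855).

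Dnmt3a (chromosome 12, 3806007 to 3914443, plus strand), the other de novo enzyme, measured 74.2, 91.8, 126 and 65.7 CPM in the negative libraries and 61.7, 86.0, 50.7 and 66.7 CPM in the high ones. These ranges overlap, and the log2 fold change was -0.43 (95% interval -1.07 to 0.20, edgeR adjusted p = 0.377). Low libraries averaged 63.4 ± 12.1 CPM and medium ones 63.2 ± 29.9 CPM (SD, n = 4 each). The wide spread of the medium gate came from the medium 2 library at 107 CPM, the other 3 being at 57.7 CPM or less. Without it, Dnmt3a was called lower in the medium than in the negative gate (log2 fold change -0.87, adjusted p = 0.0266). Over the 16 libraries, which share the gate differences, Dnmt3a followed Tet1 with a Pearson r of 0.83 and Dnmt3b with one of 0.82.

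Uhrf1 (chromosome 17, 56303321 to 56323486, plus strand), the reader that guides maintenance, varied little within gates, with a coefficient of variation from 6.96% to 10.03%. It measured 116, 104, 92.6 and 114 CPM in the negative libraries, and averaged 91.1 ± 6.65 CPM in low and 81.2 ± 5.65 CPM in medium libraries (SD, n = 4 each). The high libraries had 77.5, 79.7, 69.1 and 83.4 CPM, all below the negative ones. Its log2 fold change over the negative gate was -0.23 for low (SE 0.108, edgeR adjusted p = 0.323), -0.39 for medium (SE 0.109, adjusted p = 0.0187) and -0.47 for high (SE 0.110, adjusted p = 0.00301). The call in the high gate held in all 15 alternatives. That in the medium gate did not hold without negative 1 (-0.35 at an adjusted p of 0.0699), negative 4 (-0.36, p 0.0647), medium 1 (-0.38, p 0.0547) or medium 2 (-0.34, p 0.0527), nor with only the 2 gates in the fit (adjusted p = 0.0664) or with no filter on low counts (adjusted p = 0.0541). The genes most like it were Acot7 (r = 0.923), Chchd6 (0.921) and Psmg4 (0.888).

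Dnmt1 (chromosome 9, 20907209 to 20959888, minus strand), the maintenance enzyme itself, did not pass in any comparison. It averaged 111 ± 21.2 CPM in negative, 119 ± 19.98 in low, 103 ± 24.5 in medium and 107 ± 15.3 in high libraries (SD, n = 4 each). The log2 fold change of high over negative was -0.05 with a 95% interval from -0.39 to 0.29 (edgeR adjusted p = 0.894). Across libraries Dnmt1 and Uhrf1 did not follow each other (Pearson r = -0.07, n = 16).

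The 16 genes of a DNA replication list summed to between 3110 and 3285 CPM in the high gate, against 3798 and 4091 CPM in the negative gate, and 9 of the 16 were lower in the high gate and 7 did not pass. Over all genes, 8.55% were lower in high than in negative libraries. Between medium and negative, 3 of the 16 were lower, against 4.22% of all genes, and 13 did not pass. Of 8 mitosis genes, 1 (Top2a) was higher in the high than in the negative gate, against 8.42% of all genes, and 7 did not pass. The part of the cell cycle in the Uhrf1 result was not tested.

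**Figure D3:**
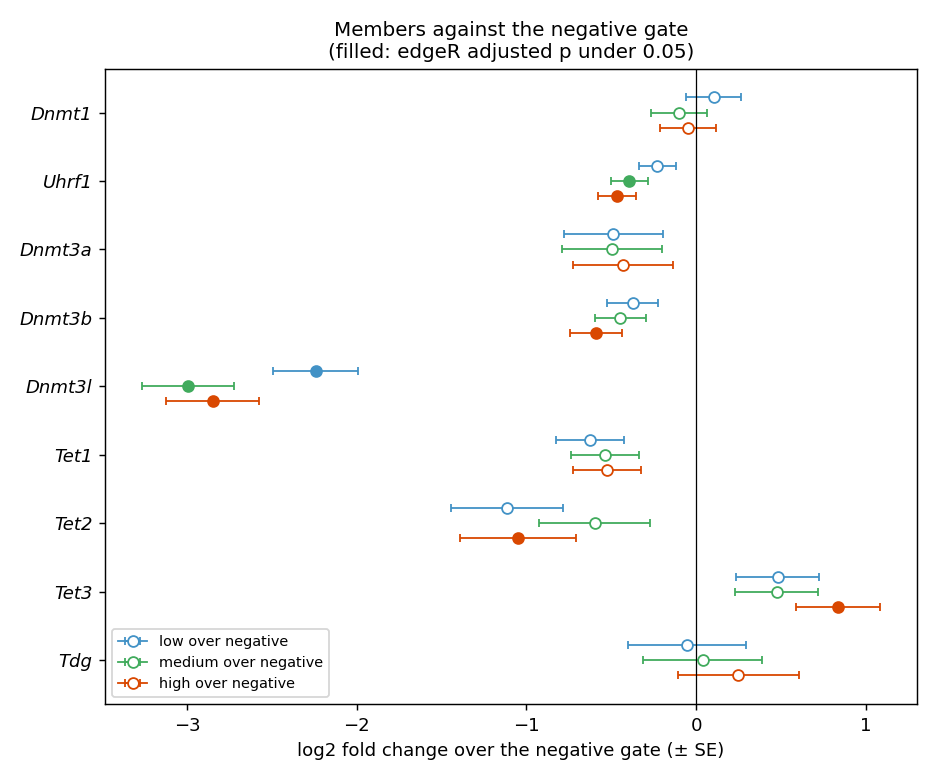
Log2 fold change over the negative gate of each member in the low, medium and high gates, with SE bars. Filled points passed edgeR's test at an adjusted p under 0.05: Dnmt3l in all 3 gates, Uhrf1 in medium and high, and Dnmt3b, Tet2 and Tet3 in high.

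Among the erasers, Tet3 was the one called higher in the high gate. Tet3 (chromosome 6, 83362373 to 83459084, minus strand) measured 56.2, 35.2, 39.7 and 45.4 CPM in the negative libraries and 60.9, 59.0, 56.0 and 70.6 CPM in the low ones. It measured 46.3, 107, 45.6 and 46.4 CPM in the medium libraries and 94.0, 69.6, 66.0 and 86.1 CPM in the high ones. Every high library lay above every negative one, and the medium 2 library lay above all others. Tet3 rose 1.78-fold in high over negative libraries (log2 0.84, SE 0.246, edgeR adjusted p = 0.0273). The direction held without any single library, but the call did not hold without negative 2 (0.74, adjusted p = 0.0847), negative 3 (0.79, adjusted p = 0.0781), negative 4 (0.85, adjusted p = 0.0616), high 1 (0.74, adjusted p = 0.0825) or high 4 (0.79, adjusted p = 0.0698). Over the negative gate the log2 fold change was 0.48 for low (adjusted p = 0.397) and 0.47 for medium (adjusted p = 0.296), the medium value being 0.070 without medium 2. That of high over medium was 0.36 (SE 0.243, adjusted p = 0.753), and it was 0.76 and called without medium 2 (adjusted p = 0.00382).

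Tet1 (chromosome 10, 62804570 to 62908996, minus strand), the TET enzyme of pluripotent cells, measured 80.8, 88.0, 104 and 55.5 CPM in the negative libraries and averaged 53.1 ± 7.28 CPM in low and 56.3 ± 19.8 CPM in medium libraries (SD, n = 4 each). The high libraries had 55.5, 66.5, 49.5 and 56.3 CPM. The ranges overlap because negative 4 lay within the range of the high libraries. The log2 fold change over the negative gate was -0.62 for low (SE 0.200, edgeR adjusted p = 0.102), -0.54 for medium (SE 0.201, adjusted p = 0.114) and -0.53 for high (SE 0.203, adjusted p = 0.0848), and none of them passed. All 3 passed without negative 4, with values of -0.78 for low (adjusted p = 0.0145), -0.69 for medium (adjusted p = 0.0183) and -0.68 for high (adjusted p = 0.0139). The medium value also passed without medium 2 (-0.80, adjusted p = 0.00178). With a block for the replicate number, all 3 passed as well.

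Tet2 (chromosome 3, 133463679 to 133545139, minus strand) was low throughout, with 60 counts summed over the high gate and 160 over the negative one. It measured 4.32, 2.02, 3.08 and 1.83 CPM in the high libraries and 5.35, 5.90, 8.37 and 4.81 CPM in the negative ones, which do not overlap. For high over negative the log2 value was -1.05 (SE 0.342, edgeR adjusted p = 0.032). This call did not hold without negative 2 (-1.07, adjusted p = 0.0539), negative 3 (-0.87, adjusted p = 0.117), high 2 (-0.92, adjusted p = 0.0916), high 3 (-1.08, adjusted p = 0.06) or high 4 (-0.92, adjusted p = 0.0899). It was also lost after thinning to the smallest library (-1.43, adjusted p = 0.0713) and with no filter on low counts (-1.04, adjusted p = 0.0516). The log2 fold change over the negative gate was -1.11 for low (adjusted p = 0.0553) and -0.60 for medium (adjusted p = 0.306). The low libraries, at 3.36 CPM or less, also all lay below the negative ones. DESeq2 and a fit of only the 2 gates compared called Tet2 lower in low.

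Tdg (chromosome 10, 82629828 to 82650799, plus strand) had 81 counts in all in the high gate and 97 in the negative one. Its level was 4.42 ± 2.45 CPM in the high gate and 3.62 ± 0.654 CPM in the negative gate (log2 fold change 0.25, 95% interval -0.48 to 0.98, edgeR adjusted p = 0.705). Its counts are uncertain, because the near-copy Tdg-ps has a row of its own (0 to 17 counts per library) and the last exon of Tdg overlaps Glt8d2 on the opposite strand by 367 bases. In the annotation used, the exons of the longest transcript of each other member overlap no exon of another gene.

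The medium 2 library was the highest of its gate for 6 of 9 members: Dnmt3a, Dnmt3b, Dnmt3l, Tet1, Tet2 and Tet3. With genes split into 3 equal groups by longest annotated transcript, the long group of that library had a median deviation of 0.20 on the log2 scale from the gate mean, and the short group one of -0.12. In negative 3, the highest of its gate for Dnmt1, Dnmt3a, Tet1 and Tet2, these values were 0.08 and -0.05. In low 1 they were 0.05 and -0.05, and that library was the highest of its gate for Dnmt3a and Dnmt3b and the lowest for Dnmt1, Tet1, Tet2 and Uhrf1. In high 2, the highest of its gate for Dnmt3a, Dnmt3b, Dnmt3l and Tet1, the long and short values were 0.004 and 0.02. In negative 4, the lowest of its gate for Dnmt1, Dnmt3a, Dnmt3b, Dnmt3l, Tet1 and Tet2, they were -0.03 and 0.02. Tet1, Tet3, Dnmt3a and Tet2 have longest transcripts of 14369, 10904, 9685 and 9179 bases, against a median of 3357.5 over 13006 matched genes. Dnmt3l, at 1822 bases, is shorter than the median. The part of transcript length in the spread of these members was not tested.

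**Figure D4:**
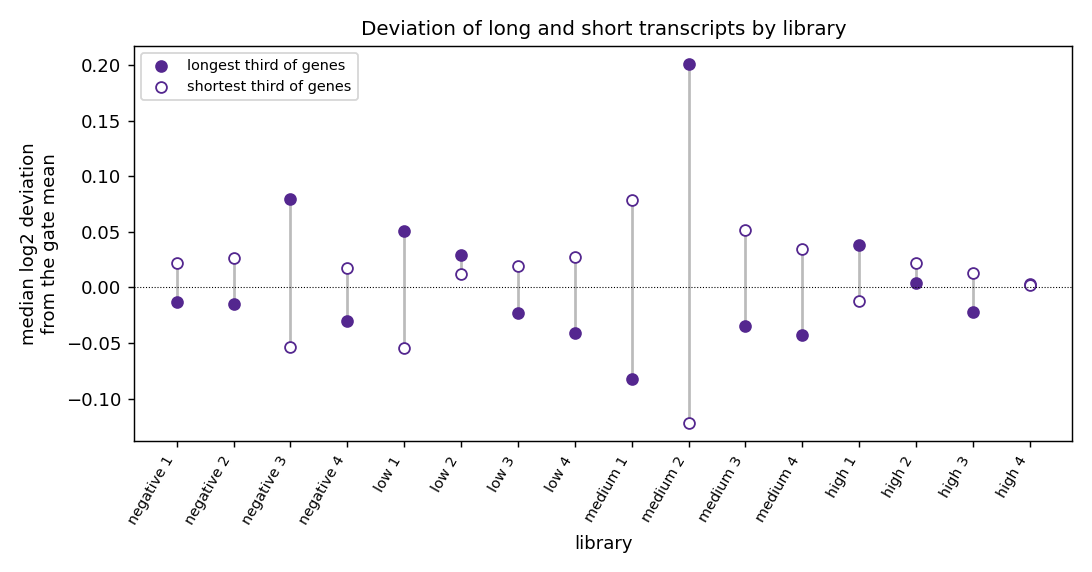
Median log2 deviation from the gate mean for the long (filled) and short (open) of 3 equal groups of genes by transcript length, for each library. The 2 values lie farthest apart in medium 2, at 0.20 and -0.12.

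Between the gates that hold FOXA2, edgeR called 0 of 9 members. For high over low, 3.79% of all genes were higher and 3.08% lower (6.87% in either direction), and 2 members had an unadjusted p under 0.05 (Dnmt3l and Uhrf1). For medium over low the shares were 0.490% and 0.223% (0.713%), with 1 member under that unadjusted p (Dnmt3l), and for high over medium they were 0.367% and 0.547% (0.914%), with 0 members. DESeq2 also called 0 members in each of these comparisons. Against negative, 0 members were called higher in low or medium by either tool, and 0 had an unadjusted p under 0.05 in that direction.

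Genes around these enzymes were read from lists. Over all genes tested, 8.55% were lower and 8.42% higher in high than in negative libraries. Of 7 partners of maintenance, 4 were lower in high than in negative libraries and 3 did not pass, with a median log2 fold change of -0.33 against 0.00 over all genes. Hells, the remodeller that opens chromatin to methylation, averaged 511 ± 63.1 CPM in the high gate and 780 ± 82.4 CPM in the negative gate (log2 fold change -0.61, edgeR adjusted p = 0.000142). Lig1 and Pcna, which act at the replication fork, and Cdca7, the partner of HELLS, had log2 fold changes of -0.55, -0.53 and -0.33. Of 11 genes that direct or antagonise methylation, 1 was lower, which is near the share of all genes, and 10 did not pass. This was Dppa3, an inhibitor of UHRF1, which averaged 0.215 ± 0.288 CPM in the high gate and 7.32 ± 3.51 CPM in the negative gate, and is itself a marker of pluripotent cells. In the low gate Dppa3 was already lower than in the negative one (log2 fold change -3.00).

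Of 8 proteins that bind unmethylated CpG islands through a CXXC domain, 2 were higher in the high gate and 6 did not pass. The shares of all genes in that comparison were 8.42% higher and 8.55% lower. Cxxc4, known to bind and destabilise TET2 protein, averaged 21.6 ± 1.301 CPM in the high gate and 8.38 ± 3.48 CPM in the negative gate (log2 fold change 1.37, edgeR adjusted p = 4.90e-05). Its relative Cxxc5 averaged 58.3 ± 3.14 CPM in the high gate and 30.9 ± 6.27 CPM in the negative gate (log2 fold change 0.92, adjusted p = 1.20e-05). Of 13 genes of demethylation and base repair, 1 was lower, which is near the share of all genes, and 12 did not pass. This was Gadd45g, at 13.5 ± 4.71 CPM in the high gate and 67.3 ± 3.26 CPM in the negative gate (log2 fold change -2.33, adjusted p = 3.16e-10). Of 5 tested genes of TET cofactor supply and partners, Ogdh, a subunit of the complex that consumes the TET cofactor alpha-ketoglutarate, was lower (log2 fold change -0.54, adjusted p = 0.0015) and 4 did not pass. Idh2, which makes that cofactor in mitochondria, was among the 4 (0.21, adjusted p = 0.176), and was called higher than in negative libraries in low (0.40, adjusted p = 0.0179) and medium (0.39, adjusted p = 0.0131).

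edgeR called 0 of 7 methyl-CpG readers in the high gate, where 2 had an unadjusted p under 0.05 (Zbtb4 and Mbd1), and 0 of 7 genes of the methyl donor cycle, where 1 did (Ahcyl1). DESeq2 called 0 in both lists. Of 14 germline genes known to be silenced by promoter methylation, 7 were tested. Of these, 3 were lower in the high gate, against 8.55% of all genes, and 4 did not pass. Stk31 averaged 14.7 ± 2.19 CPM in the high gate and 23.8 ± 3.96 CPM in the negative gate. For Hormad1 the values were 9.47 ± 2.59 and 17.3 ± 4.02 CPM, and for Sycp3 0.843 ± 0.168 and 3.29 ± 3.3002 CPM. Sycp3 rests on 16 counts in the high gate. Its negative libraries ran from 0.921 to 8.1 CPM (median 2.06) and overlapped the high ones, which reached 1.01 CPM.

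**Figure D5:**
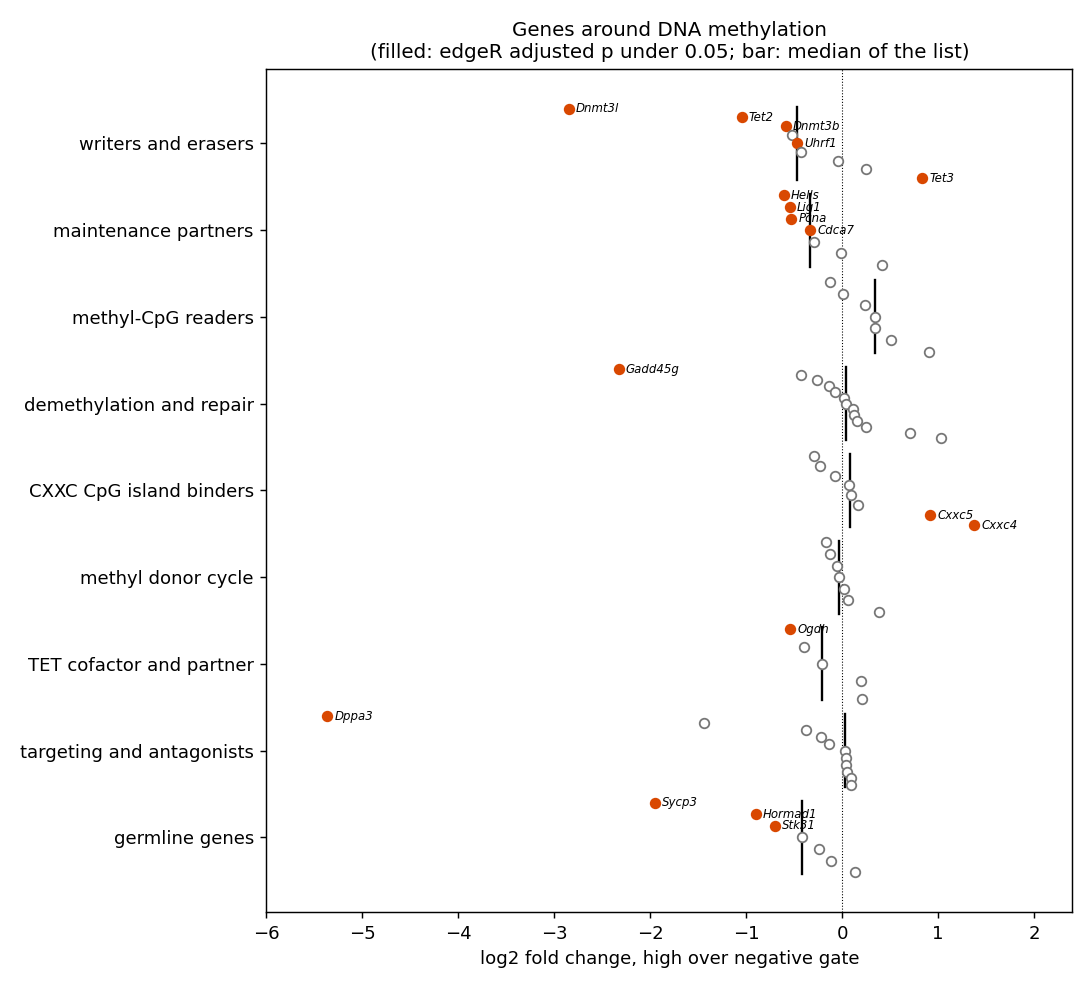
Log2 fold change of high over negative for the tested genes of each list (points), with the list's median (bar). Filled points passed edgeR's test at an adjusted p under 0.05, with Dnmt3l, Gadd45g and Dppa3 at the low end and Tet3, Cxxc5 and Cxxc4 at the high end.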

How the data were processed

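The libraries were made with BRB-seq, a bulk 3′ RNA-seq method with early pooling, per the labels' protocols. The authors deposited a table of raw counts, whole numbers, unnormalized, for 35976 gene symbols and 16 libraries. Tools named in the submitters' processing notes are STARsolo 2.7.9a, cutadapt 1.18 and DESeq2 1.42.0, with the build GRCm38. Which annotation and strand setting were used, and whether molecular identifiers were collapsed, is not stated in those notes or labels. Gate and number in each column name gave its sample.

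The members and lists were chosen with earlier results of these data known. Counts were fitted with edgeR 4.0.16 in R 4.3.3 (TMM factors from 0.97 to 1.05, expression filter, robust quasi-likelihood model with 4 gates over all 16 libraries), with Benjamini-Hochberg adjustment over 13891 genes at 0.05. All adjusted p-values come from this test unless another tool is named. CPM is counts over the scaled library size. Standard errors are the log2 fold change over the square root of F. One count was worth between 0.102 and 0.304 CPM, and at 0 counts a level of up to 3 counts (0.307 to 0.913 CPM) is allowed by counting error alone. No 2 libraries of a gate agreed within sampling noise (chi-square per degree of freedom of at least 4.49). The steps were tested on simulated counts. Gene models are GENCODE M21 and promoter windows RefSeq, both on GRCm38. Named genes were all members, up to 4 called genes per list and direction, and the 3 genes most correlated with each of the 3 members of smallest adjusted p. Alternatives tried: DESeq2 1.42.0, RLE scaling, keeping all genes, a block for the replicate number, counts thinned to the smallest library, a fit of only the 2 gates compared, a fit without low 1 and medium 2, and each library of the gates compared left out. One gene each of the TET cofactor and floor plate lists is not reported here.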

Additional observations from a re-analysis of the deposited data

Results flagged for a closer look

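Among 36 sets of 4 libraries examined (9 members in 4 gates), 2 held a library far from the other 3 by Dixon's test. Chance alone gives about 1 in 20 such sets.

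Tet3 measured 107.03 CPM in medium 2, and the nearest medium library was at 46.4 CPM. Tdg measured 4.93 CPM in low 4, which rests on 34 counts, and the nearest low library was at 3.17 CPM.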

How the results depend on the processing

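Over 810 alternative values of 54 member fold changes, 711 kept direction and side of the threshold, 18 lost the call, 27 gained one and 54 changed sign, all 54 of them uncalled both ways. Dnmt3l in the 3 comparisons with negative, and Dnmt3b and Uhrf1 in high over negative, kept their calls in all 15 alternatives each. Tet1 was called lower against negative with no filter in low (-0.61), medium (-0.52) and high (-0.52), with only the 2 gates compared in low (-0.62) and high (-0.52), with DESeq2 in low (-0.63), and without low 1 and medium 2 in medium (-0.80) and high (-0.53). The cause of the changes was not tested. Counts were few for Tet2, Dnmt3l and Tdg, with 60, 65 and 81 summed over the high gate.

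With DESeq2, 3 members were lower in low than in negative libraries, and 49 genes of all were lower in medium than in low. With no filter, 1 member was higher in medium and 2 were lower in low than in negative libraries. Over all genes it gave 318 higher in low over negative, 120 higher and 69 lower in medium over low, and 87 higher and 135 lower in high over medium. Thinning gave 110 higher and 185 lower in low over negative, 325 and 271 in high over low, 41 and 20 in medium over low, and 32 higher in high over medium. With only the 2 gates compared, 1 member was lower in medium and 3 were lower in low than in negative libraries, and 39 genes were higher and 18 lower in medium over low. Without low 1 and medium 2, 5 members were lower in medium than in negative libraries, 1 (Tet3) was higher in high than in medium, and 171 genes were higher and 153 lower in high over medium. Apart from that for high over medium, these member counts have no all-gene count of the same setting and direction beside them. They cannot be set against a share of all genes.

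The replicate numbers were not taken to pair the libraries, since the labels do not say that a number marks a shared culture. Of 24 same-number correlations, 6 exceeded 0.1 (from -0.08 to 0.22). As a hint from the data that libraries may share something by number, 8 of 16 correlated best with their own number, given here with no chance level. Number 3 was also the highest library in all 4 gates for Dnmt1, which is 1 gene picked from 9 members. With the replicate block, 4 members were lower in medium and 2 in low than in negative libraries, and Tet1 was called lower in low (-0.61, adjusted p = 0.0222), medium (-0.56, adjusted p = 0.0222) and high (-0.51, adjusted p = 0.0249). No all-gene count is given for the blocked fit, so its member counts cannot be set against a share of all genes.

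Leaving out 1 library at a time, members higher in high over negative numbered 0 to 1 and those lower 3 to 5. Those lower numbered 1 to 4 in medium and 1 to 2 in low over negative, and those higher in high over medium 0 to 1. Over all genes, higher calls ran from 934 to 1049 and lower ones from 914 to 1063 in high over negative. For medium over negative they ran from 477 to 549 and 434 to 526, and for low over negative from 125 to 172 and 212 to 287. The ranges were 34 to 79 and 16 to 32 in medium over low, 26 to 112 and 46 to 121 in high over medium, and 368 to 470 and 316 to 399 in high over low. The log2 fold change of Dnmt1 over negative ran from -0.011 to 0.22 for low, -0.22 to 0.024 for medium and -0.16 to 0.065 for high. That of Tdg ran from -0.26 to 0.074 for low, -0.054 to 0.16 for medium and -0.13 to 0.44 for high. For Tdg in low over negative it was 0.16 after thinning and 0.0045 without low 1 and medium 2.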

Other observations

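Ratios of counts within a library were looked at for 4 pairs of members after their values were seen, and are given with no test. The ratio of Tet3 to Tet1 counts lay between 1.05 and 1.69 in the high libraries, against 0.382 and 0.817 in the negative ones. That of Dnmt3l to Dnmt3b lay between 0.0139 and 0.0213 in the high libraries, against 0.0717 and 0.0962 in the negative ones. These ranges do not overlap, whereas those of Dnmt3a to Dnmt3b (0.297 to 0.453 in high, against 0.273 to 0.425 in negative libraries) and of Uhrf1 to Dnmt1 (0.577 to 0.979 in high, against 0.680 to 1.35 in negative libraries) do. In the low and medium libraries the Tet3 to Tet1 ratio, at 0.907 or more, was also above every negative one. The Dnmt3l to Dnmt3b ratio there, at 0.0353 or less, was below every negative one. The ratios of the other pairs overlapped the negative ones there too. The ratios were compared between gates only, and were not read as showing which gene of a pair is more abundant.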
